A study of Mus musculus with 6 samples.

Results

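Genes of sodium, calcium and potassium channel families, 38 in number, were followed in double-positive thymocytes, the CD4+CD8+ precursors in which the newly made T cell receptor is tested against self. They are the 38 of 164 matching gene symbols whose mean of the KO and WT values was at least 0.3 FPKM (fragments per kilobase of transcript, scaled to library size), in a table of 37867 gene models. Names were matched by prefix: Scn, Cacn, Kcn, Trpc, Trpm, Trpv, Orai, Stim, Itpr and P2rx. Of the other 126 symbols, 64 were listed at 0 in both genotypes, and 2 had been tested by the authors. Just inside the minimum were P2rx7, at 0.448 FPKM in KO and 0.328 FPKM in WT, and Trpm4, at 0.252 FPKM in KO and 0.651 FPKM in WT. Just outside it were the potassium channel interacting protein Kcnip3, at 0.199 FPKM in KO and 0.401 FPKM in WT, and the calcium channel pore gene Cacna1a, at 0.188 FPKM in KO and 0.336 FPKM in WT. One member is a channel gene by name only: Trpc4ap encodes a protein that binds a TRPC channel and serves a ubiquitin ligase.

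The cells were sorted from C57bl6 mice. KO mice lack the microRNA genes mir181a1 and mir181b1, and WT mice carry both. There were 3 libraries of each genotype, and the labels state neither the age of the mice nor whether libraries of a genotype came from separate animals. The authors deposited 1 FPKM value per genotype, so no value has a spread between libraries, the depth of each library is unknown, and each error given as ± is 1 standard error of a log2 ratio, obtained by dividing the ratio by the authors' test statistic. In these bulk samples fewer cells of a type and less RNA per cell cannot be told apart.

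The sorted cells carried the genes of their stage: Cd4 stood at 907 FPKM in KO and 732 FPKM in WT, and Rag1 at 1193 FPKM in KO and 1220 FPKM in WT. Of 8 matched double-positive markers, none passed the threshold in the authors' deposited table. Summed levels of the other marker lists were 16.0 FPKM in KO and 20.4 FPKM in WT for 5 B cell genes, nearly all of it Cd79b, 1.87 FPKM in KO and 3.94 FPKM in WT for 5 myeloid genes, 0.0557 FPKM in KO and 0.0863 FPKM in WT for 3 NK cell genes, 0.670 FPKM in KO and 1.35 FPKM in WT for 4 erythroid and platelet genes, and 0.896 FPKM in KO and 0.634 FPKM in WT for 5 epithelial and stromal genes. Ppbp of platelets was listed at 0 in both genotypes, Foxn1 of thymic epithelium at 0 in KO and Ncr1 of NK cells at 0 in WT. The myeloid integrin Itgam was called lower, at 1.02 FPKM in KO and 2.11 FPKM in WT (q = 0.0413 in the authors' deposited table). The double-negative marker Il2ra stood at 29.4 FPKM in KO and 2.89 FPKM in WT and was called higher in the authors' deposited table. The other double-negative markers were not called, Kit at 0.370 FPKM in KO and 0.672 FPKM in WT and Cd44 at 3.81 FPKM in KO and 2.96 FPKM in WT, so that Il2ra makes up most of the list's sum of 33.6 FPKM in KO and 6.52 FPKM in WT. Whether these cells or genes have a part in the channel values below was not tested.

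Ion channels shape T cell receptor signalling mainly through calcium. Phospholipase C makes inositol trisphosphate (IP3), IP3 receptors empty the store of the endoplasmic reticulum, STIM proteins sense the emptied store, and ORAI proteins in the plasma membrane then let calcium in. Potassium channels let potassium out and so keep the membrane potential that draws calcium in. In mouse double-positive thymocytes a voltage-gated sodium channel with the regulatory subunit Scn4b has been reported to prolong calcium entry during positive selection of CD4 T cells.

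The microRNAs that set the genotypes apart are shown with their family, because every member of it carries the same seed. Sequences are from RefSeq (GRCm38.p6), 5′ to 3′, with the seed, bases 2 to 8, in capitals.
mmu-miR-181a-5p: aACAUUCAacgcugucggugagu
mmu-miR-181b-5p: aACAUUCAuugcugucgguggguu
mmu-miR-181c-5p: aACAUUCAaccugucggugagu
mmu-miR-181d-5p: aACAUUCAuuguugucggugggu
The missing copies of miR-181a-5p and miR-181b-5p lie at chr1:137966468-137966490 and chr1:137966650-137966673 (GRCm38, plus strand). Second copies of both mature sequences, Mir181a-2 and Mir181b-2, lie on chromosome 2, and the genes for miR-181c and miR-181d lie on chromosome 8.

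The 7-base match to that seed, TGAATGT, was searched on the transcript strand of the 3′ UTR of 1 reference transcript per gene (GENCODE M21, GRCm38). It occurred in 5 of 36 members with a usable 3′ UTR (13.9%), against 17.2% of 9776 coding genes. The sites are shown with the match in capitals, as they are the only ones found among these genes.
Cacna1e: ccaactctcccaTGAATGTgatcag
Kcnq5, site 1: atcaatgtgattTGAATGTcaatct
Kcnq5, site 2: cagcaagaattgTGAATGTatcagg
Kcnk5: gaggacctcagcTGAATGTcctggc
Orai3: ctgataaacttcTGAATGTggt
Cacna2d2: catctctaaaacTGAATGTcaaacc
Of these 5 genes, Kcnq5 had the higher value in KO, at 2.13 FPKM against 1.60 FPKM in WT, and the other 4 had the lower value there. Cacna1e was the 1 gene with a match among the 13 that passed the threshold. A match is a description of these letters and does not show binding.

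Ratios are given below as log2 of KO over WT. Of the 38 genes, 29 had the lower value in KO and 9 the higher, and 13 (34.2%) had a q under 0.05, all 13 lower in KO. Over all 13834 tested models 17.1% were called in either direction, 15.3% lower and 1.79% higher in KO. The median log2 ratio was -0.56 over the channel genes and -0.17 over all tested models. Both FPKM values of the comparison had chosen the members, through their mean, so nothing is read from these counts. At a q under 0.01, 12 of the 38 genes were called, and 10.9% of all tested models, 10.1% lower in KO. The genes covered a wide range of levels: 17 averaged at least 10 FPKM, 14 lay between 1 and 10 FPKM, and 7 lay below 1 FPKM.

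**Figure D1:**
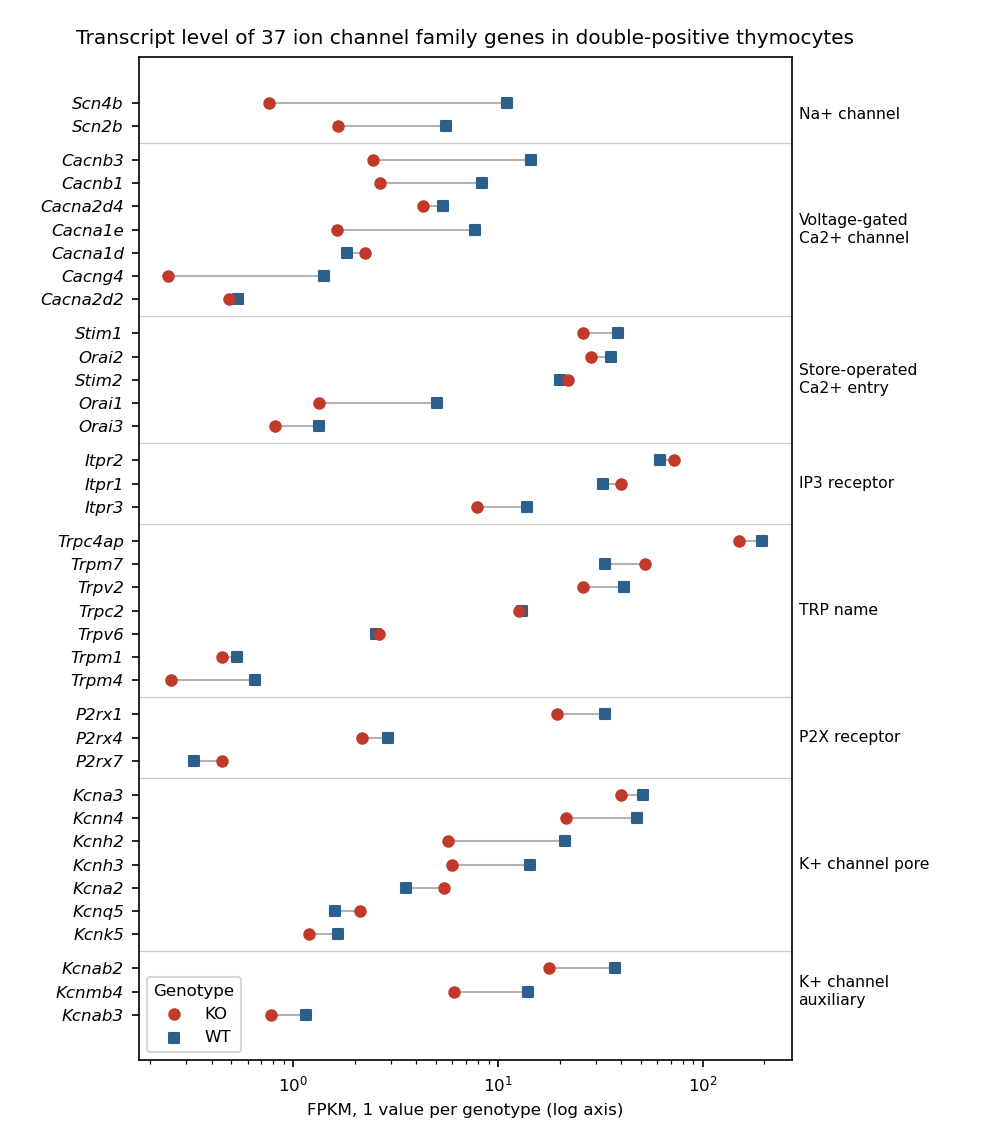
FPKM of 37 of the genes (log axis), 1 deposited value per genotype, with circles for KO and squares for WT, grouped by role and sorted by mean within a role. The longest gap is that of Scn4b, at 0.763 FPKM in KO and 11.04 FPKM in WT, while Itpr2, Trpm7 and Kcna2 lie to the right in KO.

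Of 3 sodium channel genes 2 were called, beside 15.3% of all tested models called lower. Both were regulatory beta subunits and lower in KO. Scn4b stood at 0.763 FPKM in KO and 11.04 FPKM in WT. That is a 14.5-fold lower level, the largest fold among the 13 called channel genes (log2 -3.85 ± 0.33, q listed as 0 in the authors' deposited table). The fold rests on a KO value below 1 FPKM, and with a pseudocount of 1 FPKM the log2 ratio was -2.77. Scn2b, which encodes the beta 2 subunit, stood at 1.66 FPKM in KO and 5.55 FPKM in WT (log2 -1.74 ± 0.30, q = 7.98e-07 in the authors' deposited table). Scn2b (chr9:44918067-44943689, mm9) and Scn4b (chr9:44947124-44962144) are next to each other, 3435 bases apart with no other gene model between them.

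Voltage-gated calcium channels consist of a pore subunit with beta, alpha 2 delta and sometimes gamma partners. Of 7 such genes 4 were called, all lower in KO, beside 15.3% of all tested models called lower. Cacnb3, the beta 3 subunit, stood at 2.45 FPKM in KO and 14.6 FPKM in WT (log2 -2.58 ± 0.37, q = 6.56e-10 in the authors' deposited table). Cacnb1, the beta 1 subunit, stood at 2.65 FPKM in KO and 8.40 FPKM in WT (log2 -1.67 ± 0.36, q = 0.000119 in the authors' deposited table). Both are beta subunits, which carry the pore to the membrane, and no other beta subunit gene reached the minimum level.

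Cacna1e, the pore of R-type channels, stood at 1.64 FPKM in KO and 7.76 FPKM in WT (log2 -2.24 ± 0.33, q = 3.45e-09 in the authors' deposited table). An antisense lincRNA model over the same locus, linc-Cacna1e-AS, was also called lower, at 2.18 FPKM in KO and 6.54 FPKM in WT (q = 0.00183 in the authors' deposited table). The library kit does not mark strand, so reads of the gene and of its antisense partner cannot be told apart where they overlap. Cacng4, a gamma subunit better known as a partner of AMPA receptors, was near the minimum, at 0.246 FPKM in KO and 1.42 FPKM in WT (log2 -2.53 ± 0.70, q = 0.00377 in the authors' deposited table).

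The other 3 calcium channel genes were not called. The L-type pore gene Cacna1d stood at 2.25 FPKM in KO and 1.84 FPKM in WT, and its model overlaps Dcp1a, at 13.8 FPKM in KO and 21.1 FPKM in WT. The alpha 2 delta subunit genes had close values, at 4.33 FPKM in KO and 5.39 FPKM in WT for Cacna2d4 and at 0.485 FPKM in KO and 0.540 FPKM in WT for Cacna2d2. Their q lay between 0.542 and 0.919 in the authors' deposited table.

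Among the 5 genes of store-operated entry, the pore gene Orai1 alone was called, beside 17.1% of all tested models called in either direction. Orai1 stood at 1.34 FPKM in KO and 5.06 FPKM in WT (log2 -1.92 ± 0.40, q = 5.87e-05 in the authors' deposited table). Orai2 was the most abundant pore gene of the 3 in both genotypes, at 28.3 FPKM in KO and 35.5 FPKM in WT (q = 0.556 in the authors' deposited table). Orai3 stood at 0.814 FPKM in KO and 1.35 FPKM in WT (q = 0.464 in the authors' deposited table). Orai1 thus made up 4.39% of the summed Orai FPKM in KO and 12.1% in WT, and Orai2 made up 92.9% in KO and 84.7% in WT. The model of Orai2 overlaps Prkrip1 and a lincRNA model, each below 6 FPKM.

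As deposited, the STIM sensors had opposite directions, and neither passed the threshold. Stim1, the main sensor in T cells, stood at 26.0 FPKM in KO and 38.5 FPKM in WT (log2 -0.56 ± 0.33, q = 0.259 in the authors' deposited table). Stim2, which responds to smaller losses of stored calcium, stood at 22.0 FPKM in KO and 20.1 FPKM in WT (log2 0.13 ± 0.24, q = 0.82 in the authors' deposited table). Stim1 was 54.2% of the pair in KO and 65.7% in WT, and no error can be given for such shares. Once the trend of base composition and length described below was subtracted, the log2 values were 0.073 for Stim1 and 0.085 for Stim2.

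IP3 receptors were among the most abundant of all these genes, summing to 120.4 FPKM in KO and 108 FPKM in WT. Itpr2 led with 72.6 FPKM in KO and 62.1 FPKM in WT (q = 0.608 in the authors' deposited table). Itpr1 followed with 39.995 FPKM in KO and 32.5 FPKM in WT, but its standard error of 13.0 on the log2 scale leaves the ratio of 0.30 without usable precision. Itpr3, the least abundant of the 3, was called lower, at 7.89 FPKM in KO and 13.9 FPKM in WT (log2 -0.81 ± 0.25, q = 0.00884 in the authors' deposited table). Its share of the family was 6.55% in KO and 12.8% in WT.

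**Figure D2:**
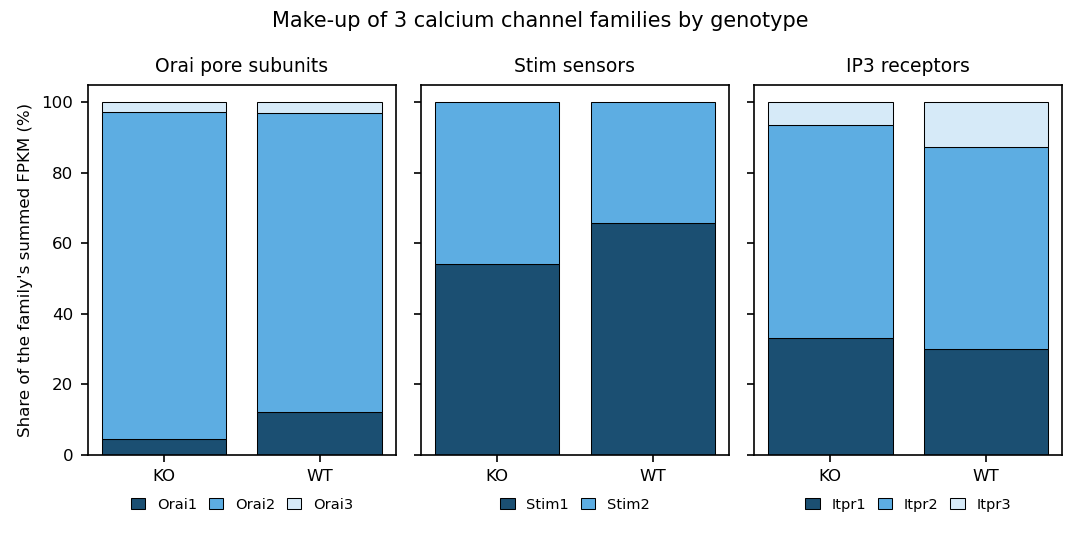
Share of each member in the summed FPKM of its family (%), for Orai pore subunits, STIM sensors and IP3 receptors, with KO left of WT. Orai1 and Itpr3 take a smaller part in KO, 4.39% and 6.55%, than in WT, 12.1% and 12.8%.

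None of the 7 genes with TRP names was called, beside 17.1% of all tested models called in either direction. Trpm7, a channel fused to a kinase that conducts magnesium and calcium, had the highest ratio of the 38 genes, at 52.1 FPKM in KO and 33.4 FPKM in WT (log2 0.64 ± 0.29, q = 0.113 in the authors' deposited table). Trpv2, a cation channel of lymphocytes and macrophages, leaned the other way, at 26.0 FPKM in KO and 41.2 FPKM in WT (log2 -0.66 ± 0.27, q = 0.0726 in the authors' deposited table). Trpc2, known from the mouse vomeronasal organ, stood at 12.7 FPKM in KO and 13.1 FPKM in WT. The calcium-selective Trpv6 stood at 2.63 FPKM in KO and 2.55 FPKM in WT. Trpm1 and Trpm4 were both below 1 FPKM, with standard errors of 1.81 and 1.26 on the log2 scale. Trpc4ap had the highest level of the 38 genes, at 151 FPKM in KO and 195 FPKM in WT (q = 0.336 in the authors' deposited table).

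P2X receptors are cation channels opened by extracellular ATP. P2rx1 dominated in both genotypes and was called lower, at 19.5 FPKM in KO and 33.4 FPKM in WT (log2 -0.78 ± 0.28, q = 0.0331 in the authors' deposited table). P2rx4 stood at 2.17 FPKM in KO and 2.92 FPKM in WT, and P2rx7, which is known for ATP-induced death of T cells, was near the minimum. Their q were 0.605 and 0.701 in the authors' deposited table. The genes P2rx7, P2rx4 and Orai1 lie in this order on chromosome 5, with 16124 bases between the first pair and 286031 bases, holding 8 other models, between the second.

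Potassium channel pores were 7, and 3 of them were called, all lower in KO, beside 15.3% of all tested models called lower. Kcnn4, the calcium-activated channel KCa3.1 of lymphocytes, stood at 21.4 FPKM in KO and 47.7 FPKM in WT (log2 -1.16 ± 0.33, q = 0.00489 in the authors' deposited table). Kcnh2, the ERG channel that repolarizes heart muscle, stood at 5.68 FPKM in KO and 21.2 FPKM in WT (log2 -1.90 ± 0.28, q = 3.45e-09 in the authors' deposited table). Its relative Kcnh3 stood at 6.0 FPKM in KO and 14.3 FPKM in WT (log2 -1.25 ± 0.31, q = 0.000816 in the authors' deposited table).

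The voltage-gated channel Kcna3, or Kv1.3, was the most abundant pore gene, at 39.7 FPKM in KO and 51.3 FPKM in WT (log2 -0.37 ± 0.46, q = 0.69 in the authors' deposited table). Its model overlaps 3 others, among them AK080695, at 77.5 FPKM in KO and 59.0 FPKM in WT, and AI504432, at 63.6 FPKM in KO and 36.9 FPKM in WT. How reads were divided among overlapping models is unknown here. Kcna2, which starts 2995 bases beyond the model of Kcna3, had a higher value in KO, at 5.45 FPKM in KO and 3.55 FPKM in WT (q = 0.137 in the authors' deposited table). Kcnq5, a pore of slow M-type currents, and Kcnk5, a background potassium channel, averaged below 2 FPKM and had q of 0.785 and 0.451 in the authors' deposited table.

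By share, Kcna3 made up 48.7% of the summed FPKM of the 7 pores in KO and 36.3% in WT, while Kcnn4 made up 26.2% in KO and 33.8% in WT. The sum itself was 81.5 FPKM in KO and 141 FPKM in WT.

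All 3 auxiliary genes of potassium channels had lower values in KO. Kcnab2, a beta subunit of Kv1 channels, was called, at 17.7 FPKM in KO and 37.2 FPKM in WT (log2 -1.07 ± 0.26, q = 0.000583 in the authors' deposited table). Kcnmb4, a beta subunit of large-conductance calcium-activated channels, differed by a similar ratio, at 6.14 FPKM in KO and 14.1 FPKM in WT. Its standard error was 2.09 on the log2 scale (q = 0.808 in the authors' deposited table), and its model overlaps Cnot2, which stood at 151 FPKM in both genotypes. Kcnab3 stood at 0.782 FPKM in KO and 1.15 FPKM in WT (q = 0.481 in the authors' deposited table). In all, 17 of the 38 models overlap another model, and 8 overlap one that the authors tested.

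The ratios of these genes moved with the base composition of their transcripts, as did those of coding genes at large. Over the 38 channel genes Spearman's rho between log2 ratio and transcript GC content was -0.617, and over 9838 coding genes of at least 0.3 FPKM it was -0.750. Both describe genes that share the same libraries and are not independent. Channel transcripts were GC-rich: their median was 54.6% GC, against 50.2% for the coding genes, and 30 of the 38, with 12 of the 13 called genes, lay above the median of the coding genes. Trpm7, with the highest ratio, had 40.1% GC, and Kcnh2 had 61.3%. Among coding genes the median log2 ratio was 0.29 in the tenth with the lowest GC content and -1.38 in the tenth with the highest.

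**Figure D3:**
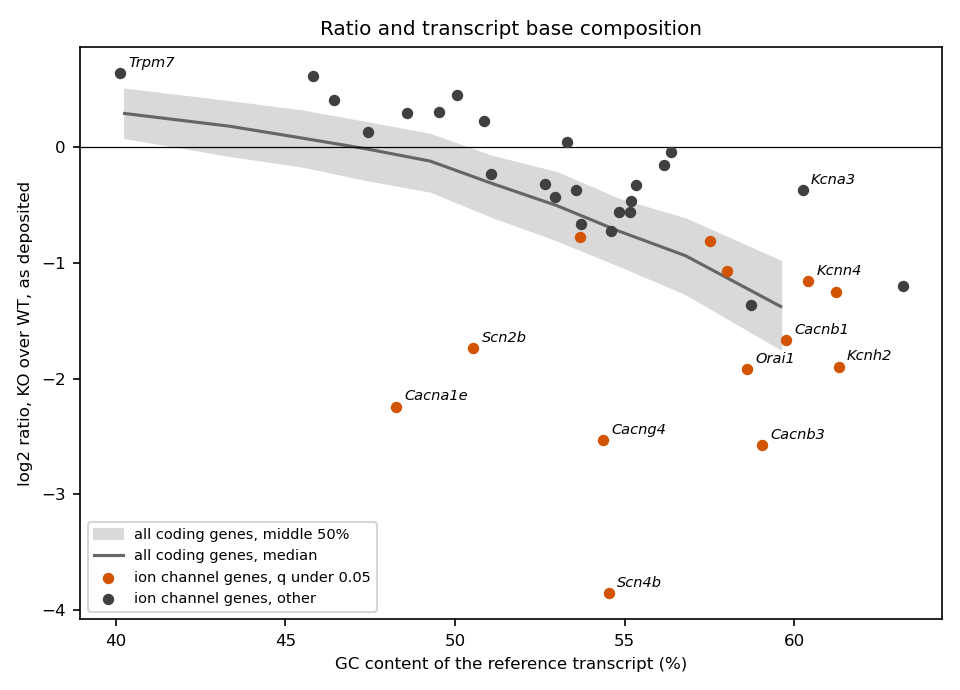
Deposited log2 ratio of KO over WT against the GC content (%) of the reference transcript, for 37 of the genes as points and for 9838 coding genes as the median (line) and interquartile range (band) of 10 groups by GC content. Scn4b, Cacna1e, Scn2b, Cacng4 and Cacnb3 lie well below the band, while Kcnn4 lies near it.

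A trend fitted to base composition and length was then subtracted from the ratios, with the deposited precision kept. This left 4 of the 37 channel genes with a usable reference transcript called (10.8%), against 174 of 9838 coding genes (1.77%), with 0.955% called lower in KO. The members had been chosen through the same FPKM values and with earlier results known, so nothing is read from this count either. The 4 were Scn4b with a log2 value of -3.28 (Benjamini-Hochberg adjusted p of 1.09e-19), Cacna1e with -2.36 (adjusted p of 3.01e-09), Scn2b with -1.56 (adjusted p of 0.000118) and Cacnb3 with -1.34 (adjusted p of 0.0211), each from the normal approximation to the deposited statistic. All 4 were lower in KO. They were 2 of the 3 sodium channel genes and 2 of the 7 voltage-gated calcium channel genes, and the others of these groups were not called. Cacng4 stayed at -1.93, with an adjusted p of 0.159 by the same approximation, beside a standard error of 0.70.

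The other called genes did not pass the threshold once the trend was subtracted. Orai1 moved to -0.70 (adjusted p of 0.607), Kcnh2 to -0.47 (adjusted p of 0.657), Cacnb1 to -0.38, P2rx1 to -0.21 and Kcnab2 to -0.03. Before the subtraction, Orai1 and Kcnh2 lay below the interquartile range of coding genes of like GC content. Kcnn4, Kcnh3 and Itpr3 changed sign, to 0.27, 0.19 and 0.062. Among genes not called as deposited, Kcna3 moved up to 1.05 and Trpc2 to 0.82. Neither was called then, with adjusted p of 0.324 and 0.237 by the same approximation. The trend of Kcna3 was read from a reference transcript of 1902 bases, while its model spans chr3:106737299-106901489 (mm9) and overlaps others. Whether that transcript stands for the model was not tested. The median of the 37 genes was 0.073. Whether the trend is a property of the libraries or of the genotype cannot be told apart in this table.

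**Figure D4:**
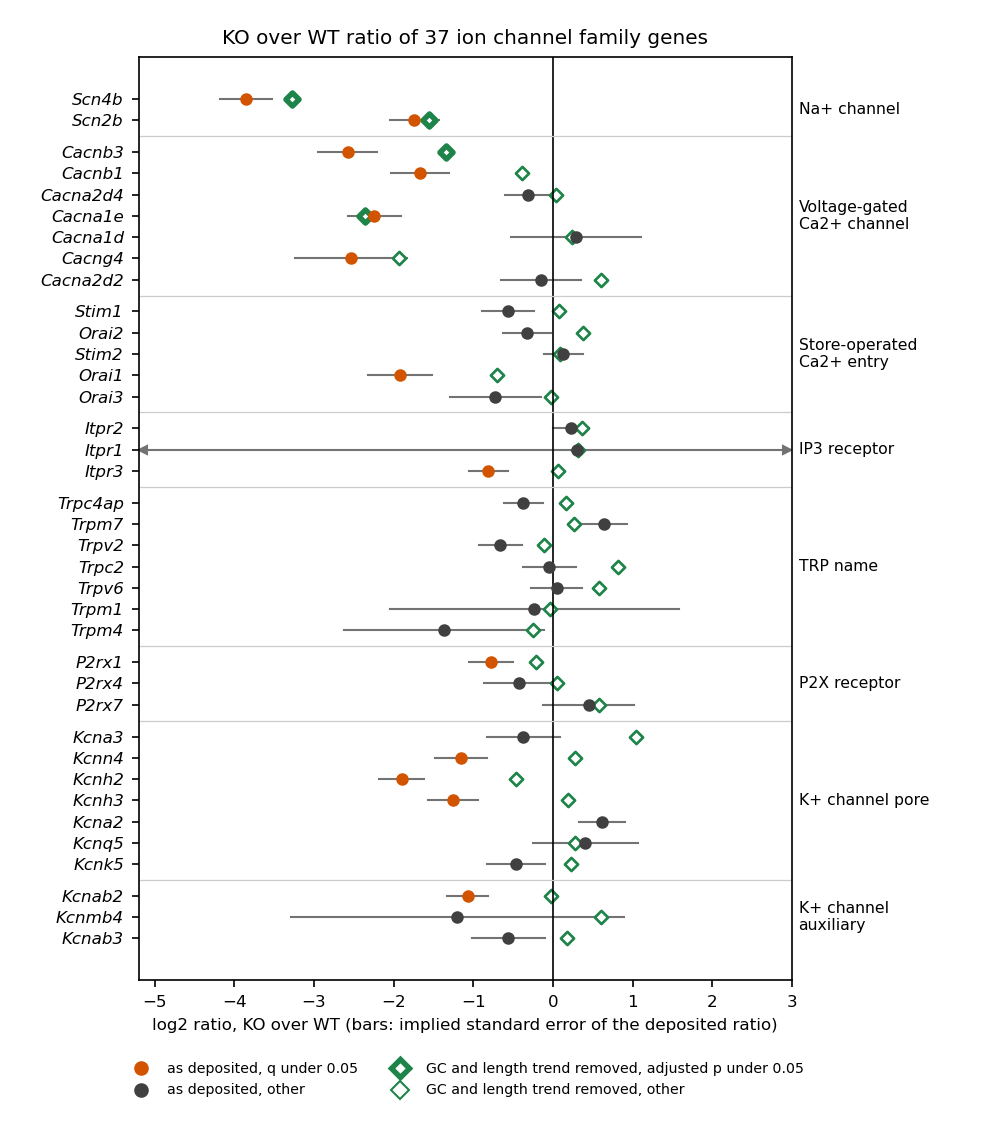
Log2 ratio of KO over WT for 37 of the genes: circles as deposited, with bars of 1 standard error, and diamonds with the fitted trend subtracted (Kcna2 has none). Thick diamonds mark the 4 genes still called, Scn4b, Scn2b, Cacnb3 and Cacna1e, and arrowheads mark the error of Itpr1, which runs past the axis.

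Genes that work with these channels were read from 4 lists, in which 13 of 67 tested genes were called (19.4%), all lower in KO, a share near the 17.1% called over all tested models (15.3% lower). Of 21 calcium signalling genes 3 were called, and the list median of the log2 ratio was -0.05. They were the calmodulin gene Calm3, at 30.0 FPKM in KO and 69.7 FPKM in WT, and the calcineurin inhibitors Rcan1, at 2.02 FPKM in KO and 3.92 FPKM in WT, and Cabin1, at 15.5 FPKM in KO and 29.4 FPKM in WT. Their q ranged from 0.00614 to 0.0363 in the authors' deposited table. The calcineurin catalytic subunits, the NFAT factors and the other calmodulin genes were not called. Of 19 genes of calcium stores and mitochondria, 2 were called, with a list median of -0.18. The calcium pump Atp2a3, which refills the store, stood at 76.5 FPKM in KO and 129.6 FPKM in WT, and the mitochondrial exchanger gene Letm1 stood at 10.8 FPKM in KO and 19.9 FPKM in WT.

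Transport of sodium, potassium and chloride had 7 of 21 genes called, beside the same 17.1% over all tested models, with a list median of -0.39. One of those with the smallest q was the volume-regulated anion channel subunit Lrrc8a, at 3.52 FPKM in KO and 7.94 FPKM in WT. With the fitted trend subtracted, 1 of 66 list genes with a usable transcript was still called (1.52%, beside 1.77% of coding genes), Lrrc8b, a partner of Lrrc8a, with a log2 value of -0.99 and an adjusted p of 0.0164. It stood at 10.2 FPKM in KO and 17.8 FPKM in WT. Of 6 tested purinergic genes, only the adenosine deaminase Ada was called, at 25.5 FPKM in KO and 49.4 FPKM in WT (q = 0.0028 in the authors' deposited table), and the list median was 0.14.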

How the data were processed

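RNA of 6 libraries (3 KO, 3 WT) had been aligned with TopHat2 to mm9, per the submitters' processing notes, which name no versions. The tools for counting and testing were not named there. The deposited table holds 1 FPKM value per genotype, a log2 ratio of WT over KO (infinite where a value is 0), a test statistic, which is a score, and a p-value and q-value per model, per the file headers; the unit FPKM was read from the column layout and values. Ratios were turned to KO over WT, and the implied standard error is the ratio divided by the statistic. A gene was called at a deposited q under 0.05. No test of libraries was run, and the p-values may measure technical spread only. Members and lists were chosen with earlier results of these data known. The text names every called member, up to 4 of the highest and the extreme ratios per role, genes next to the minimum, and up to 3 called genes per list and direction; Lrrc8b and overlapping models were chosen after their values were seen, and some genes the rule gives are not reported here. GENCODE M21 (GRCm38) gave GC content, length and 3′ UTR of 1 coding transcript per gene, an APPRIS principal one where marked. It was left out where longer than 1.2 times the model's span. A robust regression (statsmodels 0.14.6) on cubic splines with 5 pieces was tested on simulated data. The simulated ratios were built from the same fitted trend, so they cannot show whether that trend suits these data. Residuals over implied standard errors gave adjusted p.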

Additional observations from a re-analysis of the deposited data

How the results depend on the processing

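Of the 13 called channel genes, 12 were called at a q under 0.01, without P2rx1, and 12 with a minimum of 1 FPKM, without Cacng4. The count was 13 with no minimum and with all matching rows. Removal of the GC and length trend changed most: it left 4 called channel genes and 1 called gene of the 4 lists, against 13 as deposited in each, and turned the median log2 ratio of the channel genes from -0.56 to 0.073. It changed the sign of 14 of 37 members, 3 of them called as deposited: Kcnn4, Itpr3 and Kcnh3 reversed, to 0.27, 0.062 and 0.19. The median stayed between -0.56 and -0.37 under both pseudocounts (0.1 and 1 FPKM), centring on all tested models, a minimum of 1 FPKM, no minimum and all matching rows. A pseudocount of 1 FPKM moved 6 of 38 single ratios by more than their standard error, to -2.77 for Scn4b, -2.18 for Cacnb3, -1.73 for Cacna1e, -1.37 for Orai1, -1.30 for Scn2b and -0.96 for Cacng4, and changed the sign of none, while centring changed the sign of 2, neither of them called. No paired analysis was possible because the table holds 1 value per genotype, and for the same reason no replicate could be left out. Depth is unknown, and 4 members have a standard error over 1 on the log2 scale.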
